A study of Saccharomyces cerevisiae with 34 samples.

Results

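The genes described here are the kinase and phosphatase genes that act, in budding yeast, on the C-terminal domain of RNA polymerase II (CTD), other than KIN28 itself. They are the kinase and cyclin pair BUR1 and BUR2, the 3 subunits of the CTDK-I complex CTK1, CTK2 and CTK3, the kinase and cyclin of the Mediator kinase module SSN3 and SSN8, and the phosphatases SSU72, FCP1 and RTR1. They were chosen by name and not by any measured value, and are 10 of the 5368 Saccharomyces cerevisiae open reading frames in a table of 10533 features. The gene that the annotation calls SGV1 is BUR1 in the text.

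Cultures of strain BY4741 carried the KIN28 allele kin28is, the allele kin28as or the wild-type gene (WT), and were treated for 1 h with CMK, 1-NAPP-1 or the solvent DMSO. KIN28 encodes the kinase of the transcription factor TFIIH, and both alleles are analog-sensitive forms. CMK is used as an irreversible and 1-NAPP-1 as a reversible inhibitor. CMK was given to kin28is and WT, and there is no kin28as library with CMK, so nothing here covers CMK on kin28as. Before harvest, all cultures except 1 WT DMSO control were labelled for 6 min with 5 mM 4-thiouracil (4tU), so that newly made (nascent) RNA could be pulled down and sequenced beside total RNA. Labelled cells of the fission yeast Schizosaccharomyces pombe were added before lysis, at 1 cell to 6 S. cerevisiae cells, as an outside standard. At 5 µM, nascent RNA was sequenced from 3 kin28is CMK, 2 kin28is 1-NAPP-1 and 2 kin28is DMSO libraries and from 1 WT library for each of CMK, 1-NAPP-1 and DMSO. At 2 µM there was 1 nascent library for each of these 6 groups and for kin28as with 1-NAPP-1 and with DMSO. Total RNA had 1 library per group and dose set. DMSO libraries are named by the dose set they belong to.

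Depth ran from 517887 to 15568445 counts per nascent library and from 2312861 to 9646457 per total RNA library. In nascent RNA, S. cerevisiae counts per S. pombe count were 4.71 to 45.8 in the 2 µM libraries and 0.277 to 4.15 in the labelled 5 µM libraries, so levels per S. pombe read were compared within a dose set only. KIN28 was read in every library, with at least 11 counts; its reads do not separate the alleles.

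During transcription the CTD, a long row of repeats of a short peptide, is phosphorylated and dephosphorylated in order. Kin28 and, in Mediator, Ssn3 with its cyclin Ssn8 phosphorylate Ser5 near the start of genes, Bur1 with Bur2 and then Ctk1 with Ctk2 and Ctk3 add Ser2 phosphate during elongation, and Bur1 also phosphorylates the elongation factor Spt5. Ssu72 and Rtr1 remove Ser5 phosphate, and Fcp1 removes Ser2 phosphate and returns the polymerase to a form that can start again.

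The promoters of the genes that stood farthest apart in their share of nascent reads are shown first: FCP1, which took a smaller share of nascent reads with CMK, and BUR1, BUR2 and SSN8, which took a larger one. Each is the 250 bases before the start codon, on the coding strand, read from the RefSeq genome of assembly R64 (sacCer3). Capitals mark the letters TATAAA or AGGGG on either strand. The windows are chrXIII:820006-820255 (+) for FCP1, chrXVI:866423-866672 (-) for BUR1, chrXII:589104-589353 (+) for BUR2 and chrXIV:585292-585541 (-) for SSN8.
FCP1: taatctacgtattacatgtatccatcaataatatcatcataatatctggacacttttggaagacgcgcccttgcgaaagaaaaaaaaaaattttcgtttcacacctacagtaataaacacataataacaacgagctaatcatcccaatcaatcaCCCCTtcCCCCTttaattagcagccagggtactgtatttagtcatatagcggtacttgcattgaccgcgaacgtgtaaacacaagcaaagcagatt
BUR1: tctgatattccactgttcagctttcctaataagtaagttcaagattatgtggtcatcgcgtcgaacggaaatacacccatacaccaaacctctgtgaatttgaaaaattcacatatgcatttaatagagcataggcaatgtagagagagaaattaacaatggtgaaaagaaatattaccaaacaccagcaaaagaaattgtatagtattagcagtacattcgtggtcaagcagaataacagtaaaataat
BUR2: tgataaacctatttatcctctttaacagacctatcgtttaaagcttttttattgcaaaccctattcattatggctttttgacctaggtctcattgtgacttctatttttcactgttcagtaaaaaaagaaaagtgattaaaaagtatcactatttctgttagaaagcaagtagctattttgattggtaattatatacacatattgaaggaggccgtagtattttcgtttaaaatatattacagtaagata
SSN8: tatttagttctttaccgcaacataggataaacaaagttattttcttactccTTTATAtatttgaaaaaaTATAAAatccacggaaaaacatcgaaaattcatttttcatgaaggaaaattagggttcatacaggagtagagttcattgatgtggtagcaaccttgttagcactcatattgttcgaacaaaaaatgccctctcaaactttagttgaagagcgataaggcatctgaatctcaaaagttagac
The FCP1 window held CCCCT, the reverse complement of AGGGG, at 2 places, and no other member's window held AGGGG on either strand, against 19.0% of 5241 gene starts. TATAAA on either strand was in the windows of CTK2, CTK3, SSN3, SSN8 and SSU72, which is 5 of 10 members against 42.4% of all gene starts. CACGTG was in no member's window and in 2.9% of all. These are counts of letters and do not show that a factor binds there.

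The coding regions, on the same assembly, are BUR1 (YPR161C) at chrXVI:864449-866422 (-), BUR2 (YLR226W) at chrXII:589354-590541 (+), CTK1 (YKL139W) at chrXI:182958-184544 (+), CTK2 (YJL006C) at chrX:423138-424109 (-), CTK3 (YML112W) at chrXIII:45063-45953 (+), SSN3 (YPL042C) at chrXVI:473040-474707 (-), SSN8 (YNL025C) at chrXIV:584320-585291 (-), SSU72 (YNL222W) at chrXIV:229094-229714 (+), FCP1 (YMR277W) at chrXIII:820256-822454 (+) and RTR1 (YER139C) at chrV:450563-451243 (-). None overlapped another annotated gene. BUR2 ends 20 bp from ADY4, which runs toward it on the other strand, so reads past its end may be counted for either gene.

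How strongly each gene was read is compared per kilobase of coding length, as counts per kilobase per 1000000 S. cerevisiae counts (RPKM). In nascent RNA of WT, over 6 libraries, FCP1 had the highest level of the 10, with a median of 180 RPKM and a range of 154 to 196. BUR1 came next with a median of 124 RPKM (119 to 134), and the ranges of FCP1 and BUR1 did not overlap. CTK1 (median 104 RPKM), CTK3 (85.01), BUR2 (75.7), SSN3 (68.3), RTR1 (62.5), SSN8 (62.4), CTK2 (61.9) and SSU72 (56.8) followed, and each of them overlapped its neighbours in this order. These medians lie between the 37.1 and 80.7 percentiles of all S. cerevisiae genes, so the members are read at middling levels. In nascent RNA of kin28is, over 10 libraries of all treatments, BUR1 had a median of 136 RPKM and FCP1 of 127, with ranges of 112 to 217 and 62.1 to 156 that overlapped. SSU72 was lowest there too, with a median of 45.2 RPKM. In total RNA of WT the order was led by FCP1 (median 108 RPKM), CTK3 (86.2) and BUR1 (74.7). In total RNA of kin28is it was led by CTK3 (88.4 RPKM), FCP1 (87.2) and BUR1 (78.6). All neighbours in both total RNA orders overlapped.

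The first question was what inhibition of Kin28 in kin28is did to the nascent RNA of the other CTD kinase and phosphatase genes at 5 µM. Levels are counts per 1000000 S. pombe reads, called spike-scaled counts, on which fewer S. cerevisiae cells in a sample and less RNA per cell cannot be told apart. Nascent RNA of 8 of the 10 genes fell with CMK against DMSO, in edgeR's quasi-likelihood test with Benjamini-Hochberg adjustment at 0.05, and none rose. In that comparison 72.0% of all genes tested were lower and 0.231% higher, so the members' share is near the background. The median change of the members was 2.93-fold lower, beside 3.23-fold lower for all genes tested.

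**Figure D1:**
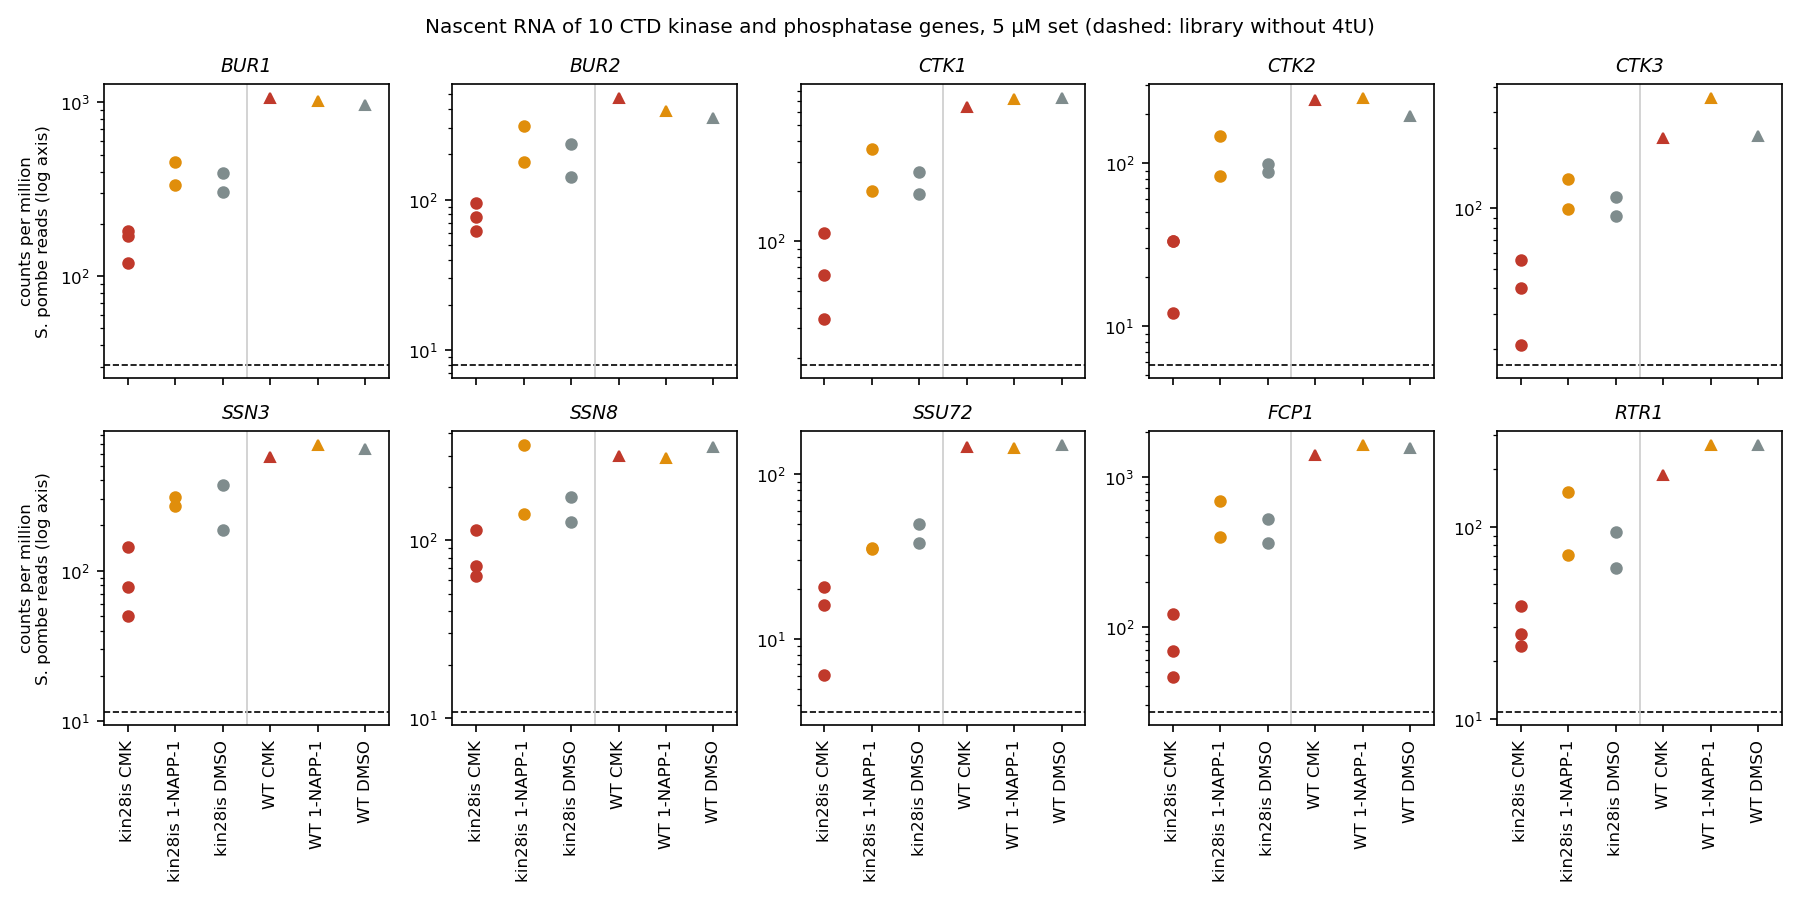
Nascent RNA level of each gene in every 5 µM library (points, counts per 1000000 S. pombe reads, log axis), in kin28is (circles, 3 CMK, 2 1-NAPP-1 and 2 DMSO libraries) and WT (triangles, 1 library each); the dashed line is the WT DMSO library made without 4tU. For all 10 genes the 3 kin28is CMK libraries lie below the kin28is 1-NAPP-1 and DMSO libraries and above the dashed line.

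Among the elongation kinases, BUR1 had 182, 171 and 119 spike-scaled counts in the kin28is CMK libraries (replicates 2, 3 and 4), against 304 and 391 in the kin28is DMSO libraries. All CMK values lay below all DMSO values, but the log2 change of -1.16 ± 0.56 (SE) did not pass the test (adjusted p = 0.0503). Its cyclin gene BUR2 had 95.2, 76.1 and 61.7 with CMK and 141 and 233 with DMSO, a log2 change of -1.29 ± 0.58 (adjusted p = 0.0395). Both genes of the pair thus lay about equally far below DMSO, on opposite sides of the threshold.

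The gene of the main Ser2 kinase, CTK1, had 113, 62.7 and 34.05 spike-scaled counts with CMK and 192 and 261 with DMSO, a log2 change of -1.73 ± 0.58 (adjusted p = 0.00643). CTK2, its cyclin gene, had 33.3, 33.4 and 12.02 with CMK and 88.0 and 99.2 with DMSO (log2 change -1.90 ± 0.64, adjusted p = 0.00675). CTK3, which encodes the third subunit, had 55.6, 40.05 and 20.8 with CMK and 91.8 and 113 with DMSO (log2 change -1.45 ± 0.62, adjusted p = 0.0286). The 3 CTDK-I genes fell by similar amounts. In each the lowest of all 5 values was that of CMK replicate 4, as it was for every other member except RTR1.

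In the Mediator kinase module, the kinase gene SSN3 had 143, 77.4 and 50.1 spike-scaled counts with CMK and 186 and 372 with DMSO, a log2 change of -1.65 ± 0.57 (adjusted p = 0.00862). Its cyclin gene SSN8 had 114, 72.1 and 62.9 with CMK and 127 and 174 with DMSO, a log2 change of -0.88 ± 0.59 that did not pass (adjusted p = 0.162). SSN8 had the smallest difference of the 10, and its highest CMK value lay just under its lowest DMSO value.

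Of the phosphatase genes, FCP1 had 122, 69.4 and 46.5 spike-scaled counts with CMK and 362 and 525.9 with DMSO. This 5.70-fold lower level was the largest change among the 10 genes (log2 change -2.51 ± 0.55, adjusted p = 0.000127), with a wide gap between the groups. SSU72 had 20.6, 16.02 and 6.01 with CMK and 38.3 and 49.9 with DMSO (log2 change -1.72 ± 0.75, adjusted p = 0.0325). RTR1 had 23.8, 38.7 and 27.6 with CMK and 61.3 and 94.4 with DMSO (log2 change -1.38 ± 0.63, adjusted p = 0.0402). SSU72 rests on the fewest reads, 12 to 15 counts per CMK library. KIN28 itself, for comparison, changed by -2.19 ± 0.65 (adjusted p = 0.00258).

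No member's CMK values overlapped its DMSO values on this scale. That was so, in the lower direction, for 82.8% of all genes with at least 100 summed counts, so it does not set the members apart. The calls depended on single libraries: without kin28is DMSO replicate 3 only FCP1 passed (1 of 10), without DMSO replicate 2 or CMK replicate 3 it was 4 of 10, and without 1-NAPP-1 replicate 3 it was 5 of 10. FCP1 passed whichever of the 10 libraries was left out, with log2 changes of -2.97 to -2.20. With the 2 µM libraries added to the fit, 16 in all and without a dose term, 0 of 10 genes passed. The sets lie far apart on this scale: BUR1 with DMSO in kin28is had 8292 at 2 µM and 304 and 391 at 5 µM. A fit without that term therefore cannot decide whether the calls hold. With a replicate block, which separates the sets, it was also 0 of 10.

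The RNA pulled down without 4tU gives a background. In the WT DMSO library without 4tU, the 10 genes had 3.62 to 30.7 spike-scaled counts. These levels were 8.1% to 79.9% of the members' levels in the kin28is CMK libraries of the 5 µM set, with a median of 22.4%, and 3.11% to 18.1% of those in the DMSO libraries. CTK3 was closest to it, at 30.0% to 79.9% of its CMK levels. With this background subtracted from the group means, CMK against DMSO was 7.98-fold lower for FCP1, 3.88-fold lower for CTK3 and 1.93-fold lower for SSN8. How far the background of that 1 culture holds for the other cultures was not tested.

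On a second scale, with library sizes from S. cerevisiae counts, a gene is set against the rest of the S. cerevisiae genome. On that scale 0 of 10 members passed in edgeR's test, while 109 genes were lower and 125 higher. FCP1 was lowest, at a log2 difference of -0.84 ± 0.25 (adjusted p = 0.0774), and SSN8 highest, at 0.86 ± 0.28 (adjusted p = 0.103). BUR1 stood at 0.57 ± 0.24, BUR2 at 0.50 ± 0.25 and RTR1 at 0.47 ± 0.35, and the other 5 lay between -0.29 and 0.19. The median of all genes was 0.0074 on this scale and -1.69 per S. pombe read, so the change of scale moves all genes up together, and a sign here is read against other genes only.

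**Figure D2:**
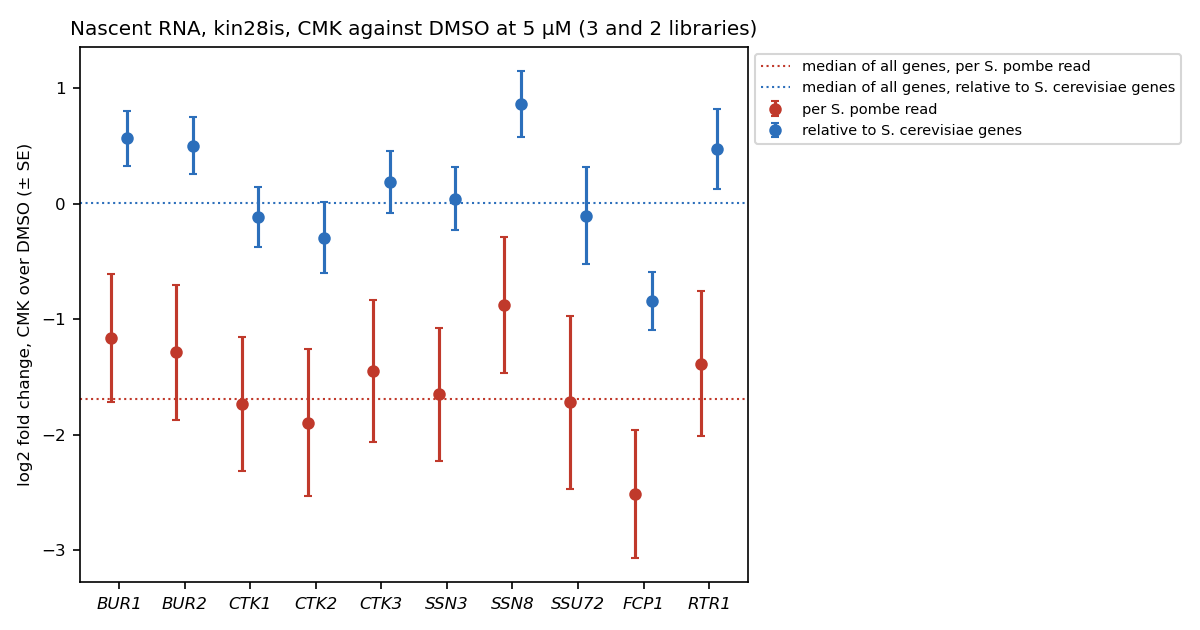
Log2 fold change of nascent RNA in kin28is with CMK over DMSO at 5 µM (points, with SE; 3 and 2 libraries), per S. pombe read (red) and relative to S. cerevisiae genes (blue); dotted lines are the medians of all genes tested. FCP1 lies farthest below both dotted lines, at -2.51 and -0.84, and SSN8 farthest above both, at -0.88 and 0.86.

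The values behind this second scale, in counts per 1000000 S. cerevisiae counts (CPM), show the same order. Nascent FCP1 had 238, 137 and 168 CPM in the kin28is CMK libraries, against 299.9 and 305 CPM in the DMSO libraries. BUR1 had 356, 336 and 428 CPM with CMK and 252 and 227 CPM with DMSO. SSN8 had 223, 142 and 227 CPM with CMK and 105 and 101 CPM with DMSO. FCP1 was lower without overlap, as were 16.9% of all genes, and BUR1, BUR2 and SSN8 were higher without overlap, as were 21.7% of all genes.

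Against 1-NAPP-1 at 5 µM in place of DMSO, nascent RNA of 9 of the 10 genes fell with CMK, and 74.9% of all genes tested were lower. FCP1 changed most again: the CMK values above stand against 698 and 397 spike-scaled counts with 1-NAPP-1 (log2 change -2.83 ± 0.56, adjusted p = 1.55e-05). BUR1 and SSN8, which did not pass against DMSO, passed here, at -1.34 ± 0.56 (adjusted p = 0.0258) and -1.56 ± 0.61 (adjusted p = 0.0160). SSU72 did not (-1.40 ± 0.80, adjusted p = 0.0997). The median change was -1.69 for the members and -1.85 for all genes tested. Without 1-NAPP-1 replicate 2, 1 of 10 passed. This comparison and the one with DMSO share the CMK libraries.

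1-NAPP-1 itself against DMSO in kin28is at 5 µM changed 0 of 10 genes in edgeR's test or in DESeq2, and 0 at an unadjusted p under 0.05. Of all genes tested, 0.134% were higher and 0.0% lower. The members' log2 differences ran from -0.32 (SSU72) to 0.69 (SSN8). The 95% interval of the difference reached from -0.87 to 1.49 for FCP1 and from -1.04 to 1.39 for BUR1. Changes within these bounds are not excluded. CMK and 1-NAPP-1 were given at the same dose and for the same time here, so their difference, above, is at matched dose and time. The 2 libraries with 1-NAPP-1 differed, and replicate 2 had the fewest counts of all, 517887. Against DMSO of the same number, the members' median log2 difference was 0.82 in replicate 2 and -0.39 in replicate 3. All genes had medians of 0.69 and -0.40 there.

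In WT, where 1 library stands for each treatment at 5 µM and the spread is borrowed from kin28is, 0 of 10 genes changed with CMK and 0 with 1-NAPP-1 against DMSO (edgeR, DESeq2 and unadjusted p alike). For each of these comparisons 0.0768% of all genes were lower. FCP1 had 1405 spike-scaled counts with CMK, 1651 with 1-NAPP-1 and 1570 with DMSO in WT, and BUR1 had 1063, 1017 and 961. The 10 log2 differences with CMK in WT lay between -0.51 and 0.47.

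The difference between the strains in the response to CMK was tested as an interaction. It passed for 0 of 10 genes in edgeR, where 0.269% of all genes were lower. At an unadjusted p under 0.05 it held for 1 of 10, beside 33.3% of all genes, and in DESeq2 for 1, FCP1, beside 23.2% of all genes lower. The interaction of FCP1 was -2.36 ± 1.03 (log2, adjusted p = 0.126). The fall with CMK in kin28is is therefore not shown to differ from WT for any member in edgeR's test, with 1 WT library per treatment.

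With DMSO alone, kin28is stood below WT per S. pombe read for all 10 genes, but 0 of 10 passed in edgeR's test, where 0.442% of all genes were lower. At an unadjusted p under 0.05 there were 4, beside 27.4% of all genes, and in DESeq2 there were 2, BUR1 and FCP1, beside 9.55% of all genes lower. Without kin28is CMK replicate 4, 3 passed in edgeR. FCP1 had 362 and 525.9 spike-scaled counts in kin28is and 1570 in WT (log2 difference -1.89 ± 0.71, adjusted p = 0.168). The member median of -1.41 lay beside -1.27 for all genes.

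The 2 µM set, with 1 library per group, allows values and no test. In kin28is, the 10 genes were 1.93-fold (SSN8) to 2.84-fold (SSU72) lower with CMK than with DMSO per S. pombe read, and 4.13-fold (SSN8) to 11.7-fold (FCP1) lower with 1-NAPP-1 than with DMSO. FCP1 had 3565 spike-scaled counts with CMK, 842 with 1-NAPP-1 and 9858 with DMSO. The median log2 differences of all genes were -1.22 with CMK and -2.80 with 1-NAPP-1, against DMSO. All 10 genes were higher with CMK than with 1-NAPP-1 in this set, by 0.85 to 2.08 on the log2 scale, the opposite of their order at 5 µM. The median of all genes was 1.55 in that comparison, so the order does not set the members apart. In WT of the same set, the members were also 2.67-fold to 4.85-fold lower with 1-NAPP-1 than with DMSO. The median log2 difference of all genes was -1.81 in that WT comparison. FCP1 had 4926 spike-scaled counts with 1-NAPP-1 and 16807 with DMSO in WT. Relative to other genes (CPM), kin28is with 1-NAPP-1 against DMSO had FCP1 at -0.78 and SSN8 at 0.73, the lowest and highest of the 10. With CMK against DMSO in the same set, SSU72 was lowest at -0.29, FCP1 stood at -0.26 and SSN8 was highest at 0.26.

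The allele kin28as was sequenced at 2 µM with 1-NAPP-1 and with DMSO, 1 library each. Nascent FCP1 had 1918 spike-scaled counts with 1-NAPP-1 and 10161 with DMSO, 5.30-fold lower. SSN8 had 716 with 1-NAPP-1 and 1196 with DMSO, 1.67-fold lower. These were the largest and smallest of the 10 differences, and the median of all genes was 3.84-fold lower.

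FCP1 and BUR1 were the highest-read pair of the members in nascent RNA. The ratio of their counts within a library needs no outside scale. This ratio was picked after its values were seen and is a description. In nascent RNA of kin28is at 5 µM, counts of FCP1 over BUR1 were 0.670, 0.406 and 0.392 with CMK, 1.55 and 1.19 with 1-NAPP-1, and 1.19 and 1.34 with DMSO. At 2 µM they were 0.922 with CMK, 0.478 with 1-NAPP-1 and 1.19 with DMSO. In kin28as the ratio was 0.897 with 1-NAPP-1 and 1.46 with DMSO. In the 6 WT libraries it was 1.32 to 1.73 over all treatments. FCP1 was read less than BUR1 in each nascent library of a sensitive strain with an inhibitor, other than the 1-NAPP-1 libraries of the 5 µM set. The library without 4tU had a ratio of 0.882.

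**Figure D3:**
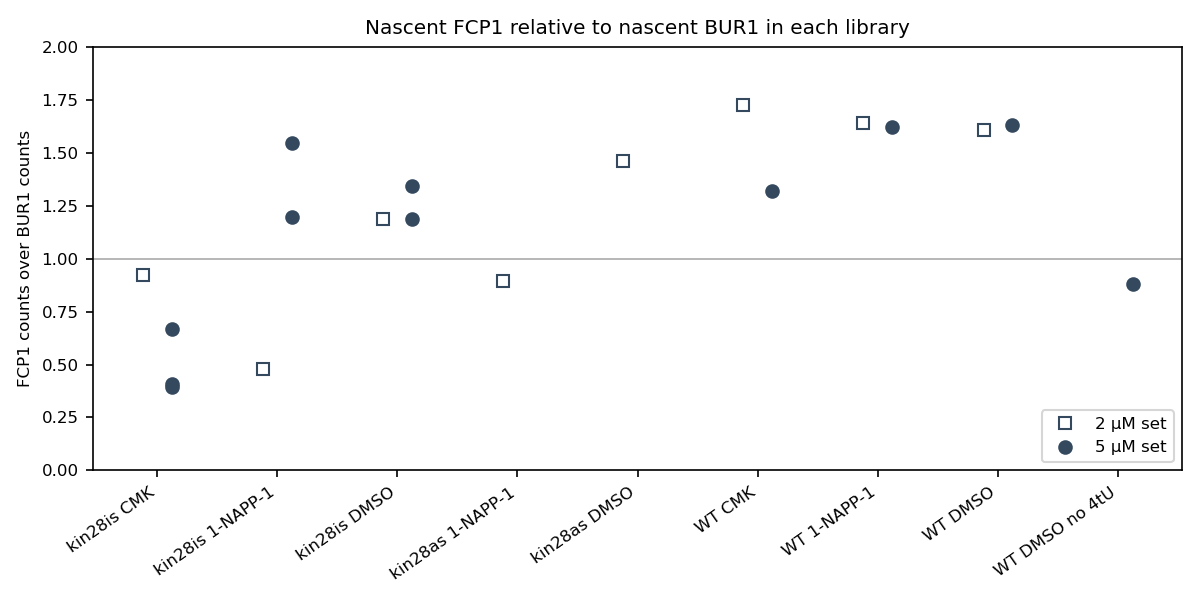
Nascent FCP1 counts divided by nascent BUR1 counts in each library (points; open squares, 2 µM set; filled circles, 5 µM set), by strain and treatment. The kin28is CMK libraries lie at 0.392 to 0.922, the kin28is DMSO libraries at 1.19 to 1.34, and the labelled WT libraries at 1.32 to 1.73.

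In total RNA the same ratio had a narrower range. It was 0.901 (2 µM) and 1.17 (5 µM) with CMK, 0.989 and 1.25 with 1-NAPP-1, and 1.18 and 1.42 with DMSO in kin28is. In kin28as it was 1.04 with 1-NAPP-1 and 1.44 with DMSO, and in labelled WT it lay between 1.51 and 1.66. In both dose sets of kin28is, the libraries with either inhibitor had less FCP1 per BUR1 than the DMSO library.

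Total RNA of the 10 genes was tested with the dose set as a term. With CMK against DMSO in kin28is 0 of 10 genes changed (edgeR, DESeq2 and unadjusted p alike), while 2.03% of all genes were lower and 0.307% higher. The log2 differences per S. pombe read ran from -0.24 ± 0.39 (FCP1) to 0.80 ± 0.67 (RTR1), and their median was 0.25 beside 0.17 for all genes. The dose sets differed, with 1 library per group in each: the members' median was -0.20 at 2 µM and 1.16 at 5 µM. All genes had medians of -0.21 and 0.96 there. With CMK against DMSO in WT, the members' medians were -0.26 and 1.19. FCP1 had 143 (2 µM) and 233 (5 µM) CPM in total RNA with CMK and 197 and 194 CPM with DMSO. BUR1 had 159 and 200.0 CPM with CMK and 167 and 137 CPM with DMSO. In these 2 genes and in the 3 CTDK-I genes the CMK and DMSO values overlapped. BUR2, SSN3, SSN8, SSU72 and RTR1, 5 of 10, had higher CPM with CMK in both libraries than with DMSO in either, as did 45.7% of all genes, while 19.9% of all genes were lower in this way. RTR1 had 46.9 and 78.5 CPM with CMK and 30.2 and 31.0 CPM with DMSO, and SSN8 had 65.9 and 107 CPM with CMK and 49.7 and 50.9 CPM with DMSO. Without the kin28is DMSO library of replicate 1, RTR1 passed, at 1.61, making 1 of 10.

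The other 6 comparisons in total RNA also called 0 of 10 genes, with 0 at an unadjusted p under 0.05 and 0 in DESeq2. They are CMK against 1-NAPP-1 and 1-NAPP-1 against DMSO in kin28is, CMK and 1-NAPP-1 against DMSO in WT, the difference between the strains in the response to CMK, and kin28is against WT with DMSO. Of all genes, 3.98% were lower with CMK than with 1-NAPP-1 in kin28is, 0.441% were lower in the difference between the strains, and 0.0% passed in the other 4.

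The last comparison was nascent against total RNA of the same culture, over 6 cultures per strain, on the S. cerevisiae scale. It gives each gene's share of nascent reads over its share of total reads. In WT, 6 of 10 genes were higher in nascent RNA and none lower, beside 28.9% of all genes higher and 27.1% lower. These were FCP1 (log2 difference 0.63 ± 0.11, adjusted p = 0.000518), BUR1 (0.62 ± 0.10, adjusted p = 0.000309), CTK1 (0.62 ± 0.11), BUR2 (0.57 ± 0.12), CTK2 (0.51 ± 0.12) and SSN3 (0.42 ± 0.12). In kin28is, 6 of 10 were higher, beside 15.6% of all genes higher and 19.3% lower. With S. pombe scaling, on which all genes had a median of 1.90 in WT and 0.61 in kin28is, 10 of 10 were higher in WT, beside 79.5% of all genes, and 0 of 10 in kin28is, beside 0.0%. In kin28is on the S. cerevisiae scale, BUR2 was highest (0.76 ± 0.16, adjusted p = 0.00321). On that scale SSN8 (0.67 ± 0.20) passed and FCP1 (0.36 ± 0.15, adjusted p = 0.0861) did not. Whether the strains differ in this was not tested.

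By culture, the ratio was above 1 in all 6 WT cultures for 8 of 10 genes, beside 30.9% of all genes, and in all 6 kin28is cultures for 7 of 10, beside 21.6%. The nascent-to-total ratio of BUR1 was 1.55 to 1.78 in WT (median 1.62) and 1.46 to 2.505 in kin28is (median 1.77). For CTK1 it was 1.31 to 2.51 in WT and 1.76 to 2.02 in kin28is. Each of these cultures read both genes more in nascent RNA. A ratio of 1 is not the middle of all genes in every culture. SSN8 in WT with 1-NAPP-1, replicate 1, had a ratio of 1.22 at the 49.8 percentile. Over the labelled WT and kin28is cultures BUR1 lay at the 73.6 to 95.5 percentiles and CTK1 at the 72.4 to 92.5 percentiles. CTK3 differed from the other CTDK-I genes: its ratio was 0.643 to 1.36 in WT and 0.811 to 1.38 in kin28is, with log2 differences of -0.11 ± 0.11 and -0.03 ± 0.16. CTK3 also has the lowest share of T in its coding strand of the 10, 23.0% against a median of 27.4% over all genes. Since 4tU enters in place of uracil, the share of T is given beside the ratio; its part in the result was not tested. FCP1, with 23.7% T, had a ratio of 1.32 to 2.03 in WT. In the culture without 4tU the ratios of the 10 genes were 0.586 to 1.12. Ranked among all genes of that culture, they lay between the 21.9 (SSN3) and 72.7 (CTK3) percentiles. BUR1 was at 72.6 and CTK1 at 62.7 there, so these genes also ranked above the middle without the label.

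**Figure D4:**
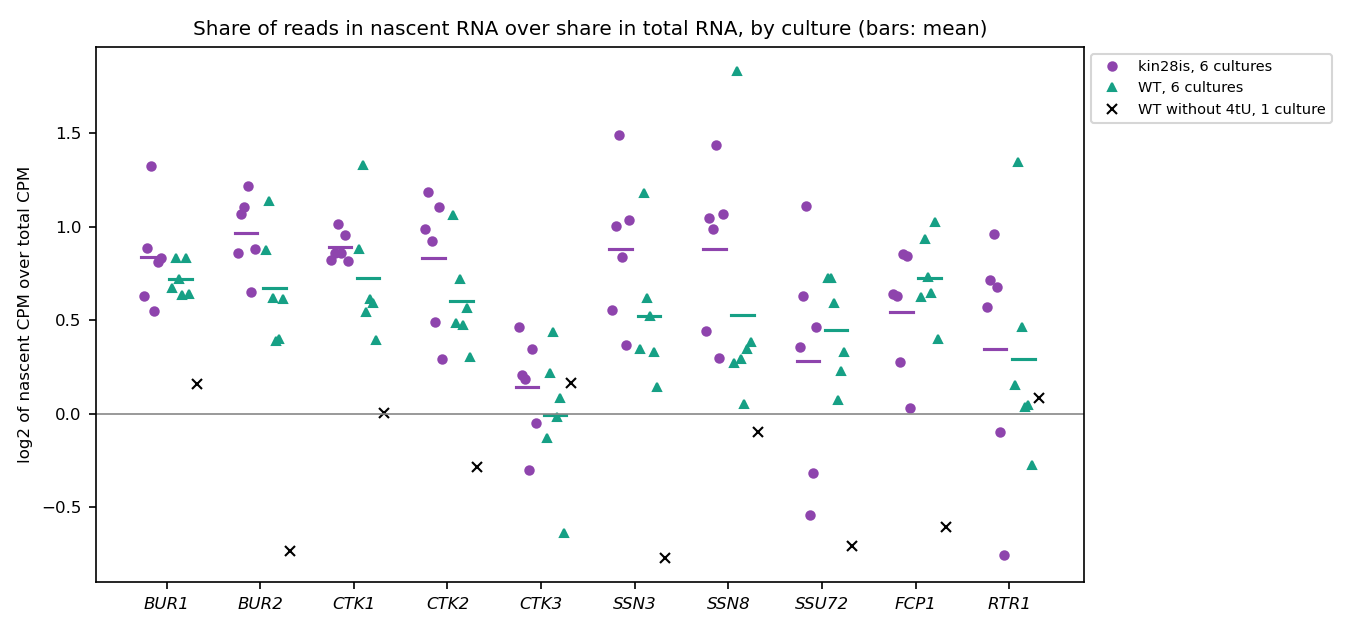
Log2 of nascent CPM over total CPM for each gene and culture in kin28is (circles) and WT (triangles), 6 cultures each with their mean as a bar, and in the WT culture without 4tU (crosses). BUR1, BUR2, CTK1, CTK2, SSN3, SSN8 and FCP1 lie above 0 in all 12 labelled cultures, and CTK3 lies on both sides of 0.

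The 16 labelled nascent libraries of WT and kin28is span both dose sets and all treatments, and the genes of a library share its depth and total. Across these libraries the members did not move as 1 group in CPM. The part of dose set, strain and treatment in the correlations below was not tested. The correlation of log2(CPM + 1) was highest for BUR2 and SSN8 (Pearson r = 0.963) and lowest for BUR1 and FCP1 (r = -0.833). The 5 pairs within a complex had a median r of 0.355, from 0.0678 to 0.801, and SSN3 with SSN8 was the highest of them. The other 40 pairs had a median of -0.0684. Among all 5023 genes with a mean of at least 10 CPM, the patterns most like BUR1 were those of ACO1 (r = 0.918), which encodes aconitase, and TRP5 (r = 0.912), a tryptophan synthase gene. For CTK1 they were GIS4 (r = 0.942) and HPC2 (r = 0.880), and for SSN3 they were ARG2 (r = 0.952), a gene of arginine synthesis, and RTT101 (r = 0.947), a cullin gene. These are the highest values among all those genes and are descriptions.

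Genes that work with the members were counted in the nascent comparison of CMK with DMSO in kin28is at 5 µM. Of the 6 other kinase subunits and activators, 6 fell, with a median of -1.86; SSN2 (-2.32 ± 0.56, adjusted p = 0.000374) and SRB8 (-2.22 ± 0.55), which encode the remaining Mediator kinase module subunits, and KIN28 had the smallest p. Of the 6 genes for the CTD-bearing subunit and other CTD-modifying factors, 4 fell. CDC14, a phosphatase of mitotic exit, stood at -2.81 ± 0.58 (adjusted p = 4.64e-05), RPO21, which encodes the subunit that carries the CTD, at -2.07 ± 0.47, and ESS1, a prolyl isomerase that acts on the CTD, at -1.87 ± 0.60. GLC7 (-0.91 ± 0.52) and RTR2 (-0.40 ± 0.89) did not pass. Of the 11 genes for readers of the phosphorylated CTD and for substrates or followers of Bur1 and Ctk1, 11 fell, with a median of -1.87. SET2, the histone methyltransferase that binds the Ctk1-phosphorylated CTD, stood at -2.28 ± 0.56, SET1 at -2.002 ± 0.53 and SPT5, the Bur1 substrate, at -1.91 ± 0.52. The background of 72.0% lower holds for these lists as well, and the median of all genes was -1.69.

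Against 1-NAPP-1 in kin28is at 5 µM, CMK gave 6 of 6, 5 of 6 and 11 of 11 genes lower, beside 74.9% of all genes. With 1-NAPP-1 against DMSO in kin28is at 5 µM, 0 genes of these 3 lists passed, with 0 at an unadjusted p under 0.05 in edgeR. In WT, with 1 library per treatment, the list medians for either inhibitor against DMSO lay between -0.12 and 0.20. In nascent against total RNA of WT, the lists had 3 of 6, 3 of 6 and 7 of 11 genes higher, beside 28.9% of all genes higher and 27.1% lower. ESS1, named after its value was seen, was the 1 gene of the lists that was lower (-1.04 ± 0.20, adjusted p = 0.000919).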

How the data were processed

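The authors deposited 1 table of raw read counts per gene for 34 libraries, 19 nascent and 15 total RNA, with genes of both yeasts. The build sacCer3 and the tools STAR 2.3.0, HTSeq 0.6.0 and CASAVA 1.8.2 are named by the submitters' processing notes. The handling of reads that fit both genomes, and of strand, was not found in the labels or files, so antisense reads cannot be told apart. Per the labels' protocols, ribosomal RNA was depleted and single-end reads of 100 bp were made with a ScriptSeq kit.

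From these counts edgeR 4.0.16 (R 4.3.3; filterByExpr, minimum count 10) was run on all S. cerevisiae genes, with p-values adjusted by Benjamini-Hochberg and a threshold of 0.05. Library sizes were the summed S. pombe counts times TMM factors computed on S. pombe genes. Nascent fits used the 10 libraries of the 5 µM set (4 residual degrees of freedom). Total RNA fits used 12 libraries with the dose set, which is the replicate number, as a term (5). Nascent against total fits used S. cerevisiae scaling with culture as a term (5), since the nascent RNA was purified from the same total RNA. In total RNA, 20 of 30 same-number pairs of libraries deviated together from their group means (r over 0.1), and that pairing rests on the labelled dose set. DESeq2 1.42.0, other scalings, filters and omitted libraries were alternatives. The fitting code was tested on simulated data.

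Separate cultures are not stated in the labels, so the p-values cover only the spread between these libraries, which may be technical. Libraries of a group all differed by more than counting noise (chi-square over its degrees of freedom at least 5.86). The members, gene lists and tests were chosen with earlier results of these data known. All 10 members, KIN28 and up to 3 genes with the smallest p per list are named. GLC7 and RTR2 are named beyond this rule, as the genes of their list that did not pass. Names and coordinates came from RefSeq assembly R64, in which 5241 of 5368 open reading frames were found.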

Additional observations from a re-analysis of the deposited data

Results flagged for a closer look

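In nascent RNA of kin28is with CMK, the library of replicate 1 stood far above the other 3 for all 10 genes in counts per 1000000 S. pombe reads. Its values were 3865 for BUR1, 1341 for BUR2, 2285 for CTK1, 1120.1 for CTK2, 1302 for CTK3, 1652 for SSN3, 1124 for SSN8, 252 for SSU72, 3565 for FCP1 and 608 for RTR1. This library belongs to the 2 µM set and the others to the 5 µM set. The kin28is DMSO libraries, which received no inhibitor, also stood apart between the sets, with 8292 for BUR1 in the 2 µM set and 304 and 391 in the 5 µM set. The 20 values examined were those of the 10 genes per S. pombe read and in CPM, and none stood apart in CPM. Chance alone sets apart about 1 in 20 groups, and the 10 values come from the same library and are not independent.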

How the results depend on the processing

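Counts below are members passing in nascent RNA of kin28is at 5 µM, 8 for CMK against DMSO and 9 for CMK against 1-NAPP-1 in the report. A replicate block gave 3 (CTK1, CTK2 and FCP1) and 6. There 4 of 6 same-number pairs had r over 0.1 and 6 of 7 libraries correlated best with their own number, a hint from the data and not the design. All 16 nascent libraries gave 0 and 0 without a dose term, which cannot decide since the dose sets lie far apart in level. With a replicate block they gave 0 and 0, and S. cerevisiae scaling of the 5 µM set gave 0 and 0. Leaving out 1 library gave 1 to 9 and 1 to 10. Unadjusted S. pombe totals, DESeq2 and no filter moved neither count by over 1.5 times.

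S. cerevisiae scaling moves all genes up together, and no member passed on it. The log2 difference was positive there, for CMK against DMSO in BUR1 (0.57), SSN8 (0.86), BUR2 (0.50), CTK3 (0.19), SSN3 (0.044) and RTR1 (0.47), and against 1-NAPP-1 in BUR1 (0.56), BUR2 (0.31), CTK3 (0.14), SSN3 (0.044), SSN8 (0.47) and RTR1 (0.22). With all 16 libraries CMK against 1-NAPP-1 turned positive in BUR1 (0.36), BUR2 (0.12), CTK1 (0.50), CTK2 (0.51), CTK3 (0.70), SSN3 (0.017), SSN8 (0.023), FCP1 (0.55) and RTR1 (0.16), where the added 2 µM libraries have the opposite order.

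DESeq2 gave 1 member for the strain difference in response and 2 for kin28is against WT with DMSO, where omitting libraries gave 0 to 3 (3 without kin28is CMK replicate 4). Total RNA of CMK against DMSO in kin28is gave 0 to 1 when a library was omitted, and no replicate block left it at 0. For nascent against total RNA, S. pombe scaling gave 10 of 10 in WT, where CTK3 became 1.79, and 0 of 10 in kin28is. No replicate block gave 5 in WT, losing SSN3 (0.43, adjusted p = 0.164), and changed no other member's call in kin28is or total RNA. Other causes were not tested. Depth limits SSU72 most.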

Other observations

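In total RNA of the 5 µM set, RTR1 had 78.5 CPM with CMK, 46.9 CPM with 1-NAPP-1 and 31.0 CPM with DMSO in kin28is. In WT of that set it had 54.3 CPM with CMK, 64.0 CPM with 1-NAPP-1 and 29.0 CPM with DMSO. The WT DMSO culture without 4tU, which received no inhibitor, had 71.4 CPM, within the range of that set's inhibitor libraries and above its labelled DMSO libraries. In WT of the 2 µM set RTR1 was not higher with an inhibitor. It had 31.6 CPM with CMK, 29.2 CPM with 1-NAPP-1 and 35.2 CPM with DMSO there. SSN8 had 80.8 CPM and BUR2 92.3 CPM in the culture without 4tU, against 25.9 and 43.3 CPM in the labelled WT DMSO library of the 5 µM set. These are single libraries and no test was made.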
